A study of Mus musculus with 7 samples.

Results

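Atf4 and 9 genes known as targets of its protein (Asns, Psat1, Phgdh, Shmt2, Mthfd2, Chac1, Trib3, Ddit3 and Sesn2) were followed in germinal centre B cells of the light zone, where such cells take up antigen and receive T cell help. The 10 genes were chosen by name from the 48795 identifiers in the count table, and each matched 1 identifier through the symbols of GENCODE vM21. The cells were sorted from mouse spleen 10 days after sheep red blood cells were given intravenously, and bulk RNA was sequenced from 3 samples labelled MIZ1KO and 4 labelled Control, all immunised alike. MIZ1, the product of Zbtb17, is a transcription factor of the zinc finger type, and the comparison asks what its loss does to the transcripts of these cells. The titles call the MIZ1KO samples MizFF and the Control samples eYFP. The labels used here name no Cre line, age or sex, and do not tie samples to animals. The p-values therefore reflect sample-to-sample spread, part of which could be technical.

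ATF4 is a basic leucine zipper transcription factor and the main effector of the integrated stress response. When amino acids run short, unfolded protein builds up in the endoplasmic reticulum, haem is low or a virus is sensed, kinases phosphorylate the initiation factor eIF2, general translation slows, and the ATF4 protein is made more efficiently from mRNA that is already present. ATF4 protein is therefore controlled largely at translation, which mRNA levels do not report. The protein switches on genes for amino acid synthesis and uptake, and under prolonged stress also genes tied to cell death. Germinal centre B cells divide fast and draw on serine and one-carbon metabolism for nucleotides.

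ATF4 binds, with C/EBP-family partners, a composite DNA element whose letters were searched as TGATGNAA on both strands of the RefSeq promoter windows, 250 bases before to 50 bases after each start, in GRCm38.p6. Of the 10 genes, 3 held it, namely Asns, Chac1 and Trib3, in 3 of their 11 windows. Over all 32851 windows the share was 3.97%. The 30-base stretches below are on the strand of the gene, with the element in capitals, and are shown because they are the letters through which ATF4 is known to reach its targets.
Asns: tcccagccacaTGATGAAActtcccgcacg
Chac1: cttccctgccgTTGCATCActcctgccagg
Trib3: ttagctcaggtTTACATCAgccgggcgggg
The Asns stretch lies at chr6:7693214-7693243 with the element on the gene's own strand, its first base 23 bases before the RefSeq start. In Chac1 (chr2:119351038-119351067) the element is on the opposite strand and begins 193 bases before the start, and in Trib3 (chr2:152344028-152344057) it is on the opposite strand and begins at base 15 of the transcript. A match is a description of letters and not a bound site, and the windows of the other 7 genes lack only these letters.

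The libraries held between 6896673 and 9482453 estimated counts, of which 3087992 to 5085019 lay outside ribosomal RNA. Of the 18 library quantities compared, some did not overlap between the groups. Transcript models of the class TEC, mostly unspliced single-exon models, took up 0.544% to 0.923% of those latter counts in MIZ1KO and 1.02% to 2.58% in Control. The nuclear RNA Malat1 took up 0.256% to 0.490% in MIZ1KO and 0.687% to 1.52% in Control, and 14657 to 14901 genes had a count in MIZ1KO against 15097 to 16109 in Control. T cell markers summed to 2.79 to 23.0 CPM in MIZ1KO and to 0.131 to 1.57 CPM in Control over 8 genes. Of these, 1, the T cell receptor gene Trbc2, passed the count filter, through its MIZ1KO libraries alone, and is given as levels (3.09 ± 1.66 CPM, SD, n = 3, in MIZ1KO and 0.0984 ± 0.197 CPM, SD, n = 4, in Control), while Cd3g and Icos were at 0 in every Control library. CPM here means counts scaled to 1 common library size with TMM factors. The dark zone and proliferation markers summed to 1899 to 2496 CPM in MIZ1KO and 1340 to 1857 CPM in Control, with Mki67 as the largest of the 6. The summed markers of dendritic cells were lower in MIZ1KO, at 16.9 to 20.8 CPM against 22.6 to 27.0 CPM, and those of B cells were higher, at 3141 to 3230 CPM against 2358 to 3103 CPM. The 18 library quantities gave exact permutation p-values of at least 0.0286, the smallest that 35 splits allow, and adjusted p-values of at least 0.147. The B cell genes Ms4a1, Cd79a, Cd79b and Pax5, the germinal centre genes Bcl6, Rgs13 and Fas and the light zone markers Cd83 and Cd86 were present in both groups, though not all at equal levels. Cd79a, a subunit of the B cell receptor complex, was called higher in MIZ1KO (0.86 ± 0.22 on the log2 scale, adjusted p = 0.0333, edgeR), and Rgs13, a regulator of G protein signalling, was called lower (-1.32 ± 0.32, adjusted p = 0.0230, edgeR). Fas and Cd86 lay lower in MIZ1KO without overlap and were not called (edgeR adjusted p = 0.160 and 0.224). The germinal centre genes Mef2b and Bcl6 and the light zone marker Nfkbia lay higher in MIZ1KO without overlap. They were not called either (edgeR adjusted p = 0.0638, 0.382 and 0.130). Zbtb17 measured 4.45 ± 0.732 CPM (SD, n = 3) in MIZ1KO and 4.18 ± 1.89 CPM (SD, n = 4) in Control. Counts over the whole gene include transcript outside a deleted part, so this level does not check the labels.

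None of the 8 genes that passed the count filter was called between MIZ1KO and Control. The test was the quasi-likelihood F-test in edgeR, at a Benjamini-Hochberg adjusted p under 0.05, and among the 11618 genes tested it called 5.96%, of them 1.90% higher and 4.05% lower in MIZ1KO. At an unadjusted p of 0.05, 2 of the 8 passed, Atf4 and Shmt2, against 24.6% of all tested genes. Atf4 and Mthfd2 were also those whose libraries did not overlap between the groups, 2 of 8, both higher in MIZ1KO, against 19.5% of all tested genes in either direction and 8.74% higher. The share at an unadjusted p is near the background. The estimates lay above 0 for 7 of the 8, against 47.7% of all tested genes, with a median log2 fold change of MIZ1KO over Control of 0.53 beside -0.03 over all tested genes. The exception was Ddit3. All members are protein-coding, and of the 9812 protein-coding genes tested 5154 had estimates above 0, with a median of 0.03. Chac1 and Trib3, with at most 9 and 21 counts in a library, did not pass the filter and are given as levels.

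**Figure D1:**
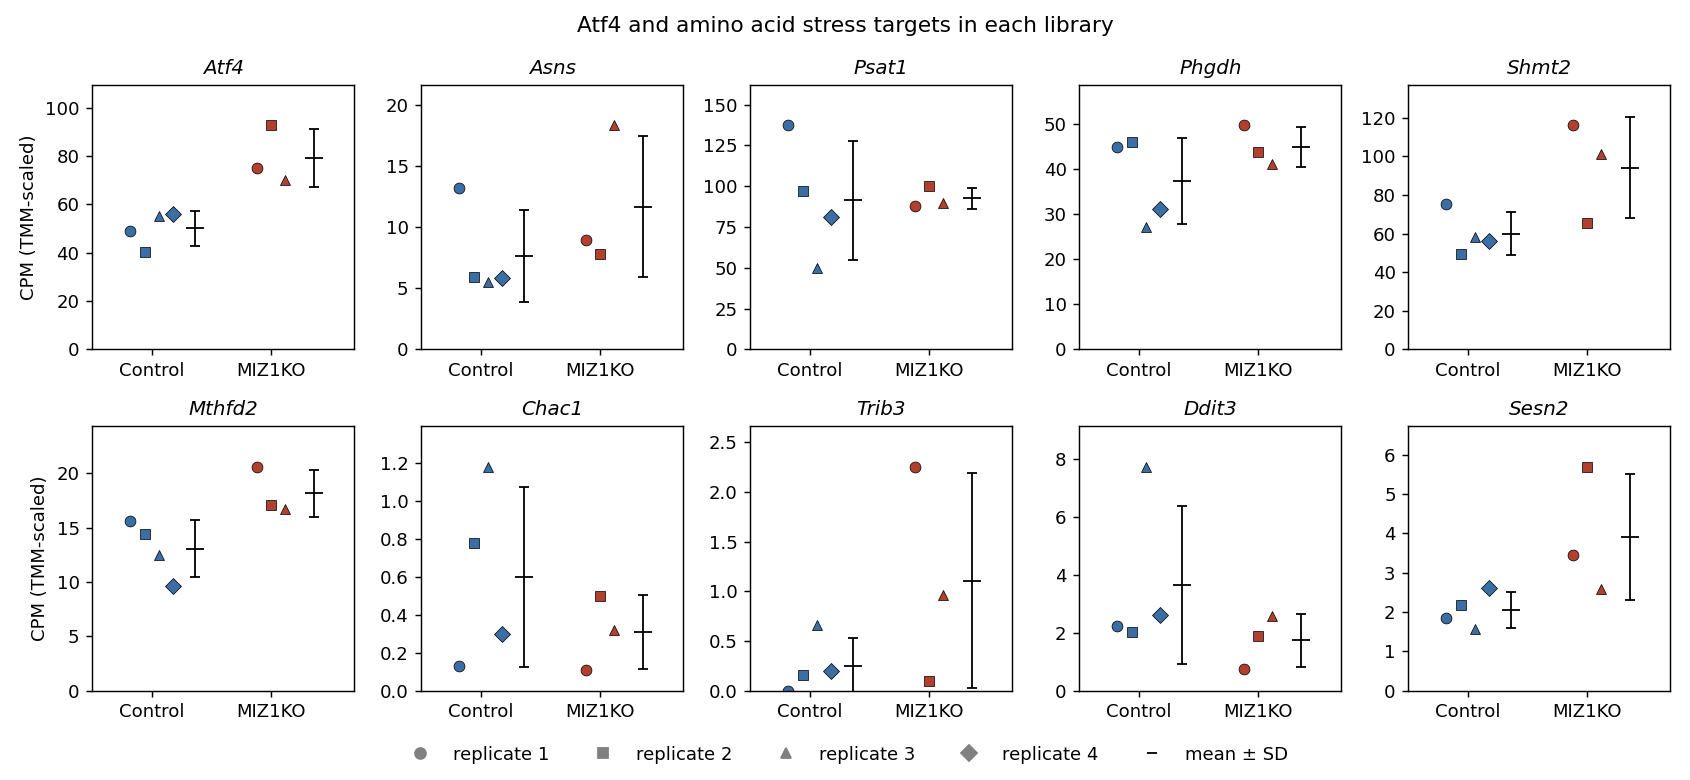
Level of each of the 10 genes in CPM (y axis, linear, from 0) in the 4 Control libraries (blue) and the 3 MIZ1KO libraries (red), with the replicate number as the symbol and the mean ± SD beside each group, its lower arm ending at the axis where it would pass below 0. The MIZ1KO libraries lie above all Control libraries for Atf4 and Mthfd2 and overlap them for the other 8 genes.

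Atf4 was the member nearest to the threshold. Its level was 74.9, 92.7 and 70.0 CPM in MIZ1KO replicates 1, 2 and 3, and 49.1, 40.3, 55.1 and 56.0 CPM in Control replicates 1, 2, 3 and 4. Every MIZ1KO library lay above every Control library, with MIZ1KO replicate 2 the highest and Control replicate 2 the lowest of the 7. In TPM, the unit described below, the groups nearly met, at 171 in MIZ1KO replicate 3 and 167 in Control replicate 3. The means were 79.2 ± 12.0 CPM (SD, n = 3) in MIZ1KO and 50.1 ± 7.25 CPM (SD, n = 4) in Control. The log2 fold change of MIZ1KO over Control came to 0.66 ± 0.20 (SE; edgeR adjusted p = 0.0628). Its 95% interval ran from 0.23 to 1.09, before any adjustment for the number of genes. The difference kept its sign in all 17 alternative settings, with log2 fold changes from 0.46 to 0.77 and adjusted p-values from 0.0322 to 0.283. DESeq2 called Atf4 (0.68, adjusted p = 0.0322), and so did edgeR once ribosomal RNA genes were left out (0.70, past the threshold by a narrow margin). With the TEC share of each library as a covariate it measured 0.73 (adjusted p = 0.283, edgeR). That share did not overlap between the groups, so here and below this fit cannot tell the share and the genotype apart. The part of the cell type markers that also differed between the groups was not tested. In bulk RNA a higher level per cell and more cells that carry the transcript cannot be told apart. Atf4 (ENSMUSG00000042406) sits on chromosome 15, at 80255184 to 80257541 of GRCm38, and rested on 259 to 928 counts per library.

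For both members of serine synthesis the groups overlapped and no difference passed the test. Phgdh, which encodes the dehydrogenase that takes the first step from glycolysis to serine, measured 49.8, 43.8 and 41.2 CPM in MIZ1KO replicates 1, 2 and 3 and 44.9, 46.0, 27.2 and 31.3 CPM in Control replicates 1, 2, 3 and 4. Control replicates 3 and 4 were the low libraries, while Control replicates 1 and 2 lay within the MIZ1KO range. The log2 fold change was 0.27 ± 0.23 (adjusted p = 0.505, edgeR), with a 95% interval from -0.22 to 0.77, and it turned to -0.37 with the TEC share as a covariate. Psat1, the aminotransferase of the next step, measured 88.1, 99.8 and 89.6 CPM in MIZ1KO and 137, 96.9, 49.6 and 81.1 CPM in Control, each in the order of the replicate numbers. Its Control libraries spread over the whole MIZ1KO range and beyond it on both sides. The means hardly differed, 92.5 ± 6.37 CPM (SD, n = 3) and 91.2 ± 36.5 CPM (SD, n = 4), and the log2 fold change was 0.02 ± 0.26 (adjusted p = 0.970, edgeR). The 95% interval for Psat1, from -0.52 to 0.57, leaves room for a change of either sign, and the estimate was -0.14 without Control replicate 3 and -0.94 with the TEC share as a covariate. Psph, which completes serine synthesis and is no member, measured 15.2 ± 6.19 CPM (SD, n = 3) in MIZ1KO and 17.2 ± 4.23 CPM (SD, n = 4) in Control.

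The members of the mitochondrial one-carbon pathway were both estimated above 0. Shmt2, which encodes the mitochondrial enzyme that turns serine into glycine and passes on a one-carbon unit, measured 116, 65.4 and 101 CPM in MIZ1KO replicates 1, 2 and 3. In Control replicates 1, 2, 3 and 4 it measured 75.5, 49.3, 58.1 and 56.4 CPM. MIZ1KO replicate 2 fell among the Control libraries, below Control replicate 1, and the other MIZ1KO libraries lay above all 4. The means were 94.2 ± 26.0 CPM (SD, n = 3) and 59.9 ± 11.1 CPM (SD, n = 4), and the log2 fold change was 0.65 ± 0.23 (edgeR adjusted p = 0.0880). Shmt2 passed the threshold without MIZ1KO replicate 2 (0.93, adjusted p = 0.0311, edgeR) and without Control replicate 1 (0.78, adjusted p = 0.0300, edgeR). It did not pass in the other 15 alternatives, over which, with these, the adjusted p ran from 0.0300 to 0.636. With the TEC share as a covariate the estimate was 0.38, and the part of that share in the difference was not tested further. Shmt1, the cytosolic counterpart, measured 15.3 ± 2.94 CPM (SD, n = 3) in MIZ1KO and 18.0 ± 3.77 CPM (SD, n = 4) in Control.

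Mthfd2, which encodes the mitochondrial methylenetetrahydrofolate dehydrogenase and cyclohydrolase found mainly in dividing cells, measured 20.6, 17.1 and 16.7 CPM in MIZ1KO replicates 1, 2 and 3. In Control replicates 1, 2, 3 and 4 it measured 15.6, 14.5, 12.5 and 9.62 CPM. The groups did not overlap, though the lowest MIZ1KO library and the highest Control library were close. In TPM they were closer still, at 25.8 in MIZ1KO replicate 2 and 25.6 in Control replicate 3. The log2 fold change was 0.49 ± 0.28 (adjusted p = 0.297, edgeR), and it was 0.04 with the TEC share as a covariate, so its size changed with that share in the model. Mthfd2l, a paralog, stayed below the filter, at 1.19 ± 1.92 CPM (SD, n = 3) in MIZ1KO and 0.665 ± 0.869 CPM (SD, n = 4) in Control.

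Asns encodes asparagine synthetase, a classic target of ATF4 under amino acid shortage. It measured 8.92, 7.79 and 18.3 CPM in MIZ1KO replicates 1, 2 and 3 and 13.2, 5.91, 5.51 and 5.81 CPM in Control replicates 1, 2, 3 and 4. One library stood high in each group, MIZ1KO replicate 3 and Control replicate 1, and the other Control libraries lay within a narrow band below every MIZ1KO library. The means of 11.7 ± 5.79 CPM (SD, n = 3) and 7.62 ± 3.75 CPM (SD, n = 4) differed by less than the SD within MIZ1KO, with a log2 fold change of 0.57 ± 0.41 (adjusted p = 0.421, edgeR). Leaving out Control replicate 1 gave 0.96 (adjusted p = 0.134, edgeR) and leaving out MIZ1KO replicate 3 gave 0.14 (adjusted p = 0.886, edgeR). Asns rested on 38 to 114 counts per library.

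**Figure D2:**
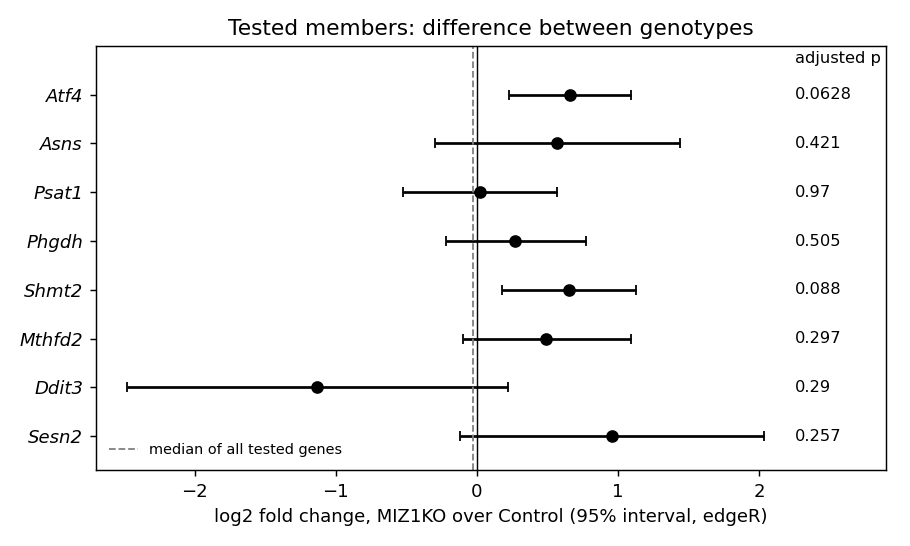
Log2 fold change of MIZ1KO over Control (x axis) with its 95% interval from edgeR for the 8 genes tested (y axis), the adjusted p at the right, and the median of all 11618 tested genes as a dashed line. The intervals of Atf4 and Shmt2 lie above 0 before adjustment, those of the other 6 include 0, and no adjusted p is under 0.05.

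The genes of prolonged stress were among the lowest of the members. Ddit3 encodes CHOP, a transcription factor that ATF4 induces and that promotes cell death under lasting stress. It measured 0.752, 1.90 and 2.57 CPM in MIZ1KO replicates 1, 2 and 3 and 2.23, 2.02, 7.74 and 2.61 CPM in Control replicates 1, 2, 3 and 4. Control replicate 3 stood apart from the other 6 libraries, and MIZ1KO replicate 1 was the lowest. The log2 fold change was -1.13 ± 0.64 (adjusted p = 0.290, edgeR) and -0.44 without Control replicate 3 (adjusted p = 0.741, edgeR), so that library carried much of the difference. With the TEC share as a covariate the sign turned, to 1.14 (adjusted p = 0.673, edgeR), and Control replicate 3 was also the library with the highest TEC share, 2.58%. In GRCm38 the Ddit3 model shares 68 exonic bases with Mars, a methionyl-tRNA synthetase gene on the other strand, and 13 with Gm4189, and reads there cannot be assigned with certainty, as no source used here states the strand setting. Mars itself measured 41.1 ± 5.80 CPM (SD, n = 3) in MIZ1KO and 28.3 ± 4.92 CPM (SD, n = 4) in Control. The log2 fold change of Mars was 0.53 ± 0.23 (adjusted p = 0.160, edgeR). The part of shared reads in the Ddit3 level was not tested. GENCODE vM21 also lists a further Ddit3 identifier, ENSMUSG00000116429, for which the count table has no row.

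Trib3, a pseudokinase that CHOP and ATF4 induce and that feeds back on ATF4, had 21, 1 and 6 counts in MIZ1KO replicates 1, 2 and 3 and 0, 1, 5 and 2 counts in Control replicates 1, 2, 3 and 4. MIZ1KO replicate 1 was the highest, at 2.26 CPM, and MIZ1KO replicate 2 lay among the Control libraries. The difference of the means, 1.11 ± 1.09 CPM (SD, n = 3) against 0.253 ± 0.282 CPM (SD, n = 4), gave a two-sided exact permutation p of 0.200. Chac1, which encodes an enzyme that breaks down glutathione, had 1, 5 and 2 counts in MIZ1KO and 1, 5, 9 and 3 counts in Control in the same order. Its highest library was Control replicate 3, as for Ddit3, and the groups overlapped (0.310 ± 0.196 CPM, SD, n = 3, against 0.598 ± 0.476 CPM, SD, n = 4; two-sided exact permutation p = 0.400). At this depth no difference in either gene was detected. Without the filter on low counts edgeR gave 2.10 ± 1.06 for Trib3 (adjusted p = 0.293) and -0.80 ± 1.06 for Chac1 (adjusted p = 0.739).

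Sesn2 encodes a sestrin, which binds leucine and restrains the growth kinase mTORC1 through the GATOR complexes. Its level was 3.44, 5.70 and 2.57 CPM in MIZ1KO replicates 1, 2 and 3 and 1.84, 2.18, 1.57 and 2.61 CPM in Control replicates 1, 2, 3 and 4. MIZ1KO replicate 3 lay just below Control replicate 4, and the other MIZ1KO libraries lay above all Control libraries. The log2 fold change was 0.96 ± 0.51 (adjusted p = 0.257, edgeR), the largest estimate above 0 among the 8, and it rested on 12 to 57 counts per library. Sesn2 sits on chromosome 4, at 132492032 to 132510501 of GRCm38, 8.93 Mb from Zbtb17, so sequence linked to the targeted gene and its loss cannot be told apart here. Its paralogs were more abundant: Sesn1 measured 14.4 ± 1.37 CPM (SD, n = 3) in MIZ1KO and 20.1 ± 4.77 CPM (SD, n = 4) in Control, and Sesn3 183 ± 4.73 CPM (SD, n = 3) and 174 ± 23.5 CPM (SD, n = 4).

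Across libraries the 10 genes did not move as a block. In Control replicate 3 the lowest of the 7 CPM values was found for 4 genes, Asns, Psat1, Phgdh and Sesn2, and the highest for Ddit3 and Chac1. In TPM, the unit described below, Asns was lowest in Control replicate 2 (11.7) and Sesn2 in Control replicate 1 (2.52). The pattern by library thus depends on the scaling. MIZ1KO replicate 1 held the highest value of 4 genes, Phgdh, Shmt2, Mthfd2 and Trib3, and the lowest of Ddit3 and Chac1. The highest Atf4 and Sesn2 levels were in MIZ1KO replicate 2, where Shmt2 was at its lowest within MIZ1KO, and the highest Asns level was in MIZ1KO replicate 3. The members above their own median over the 7 libraries numbered 7, 5 and 6 of 10 in MIZ1KO replicates 1, 2 and 3. They numbered 4, 3, 3 and 2 in Control replicates 1, 2, 3 and 4.

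**Figure D3:**
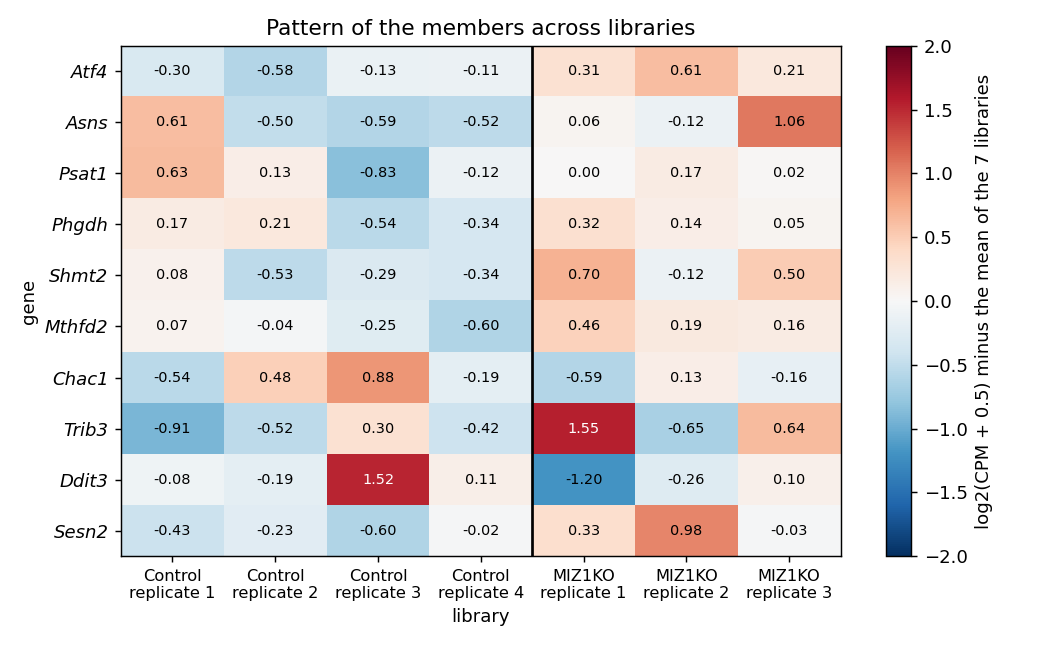
Each of the 10 genes (rows) in each library (columns), as log2(CPM + 0.5) minus the mean of that gene over the 7 libraries, with Control left and MIZ1KO right of the line. Ddit3 stands at 1.52 in Control replicate 3, where Psat1 stands at -0.83 and Asns at -0.59.

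Beside Atf4, the tested genes with the most similar profiles in log2 CPM over the 7 libraries included Zfand2a and Dlgap5 (Pearson r = 0.980 each), Neurl2 (r = 0.971) and Grwd1 (r = 0.967). These values describe 7 points that share depth and genotype and carry no test. Of the other members, Sesn2 had the highest such value (0.81), followed by Shmt2 (0.55) and Mthfd2 (0.48). Psat1 (-0.03) and Ddit3 (-0.31) were the lowest.

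Between genes, levels were compared per length as TPM (a unit in which the values of each library share 1 fixed sum), computed over the exonic length of each gene and without ribosomal RNA. Averaged over the 7 libraries, Atf4 came first at 153 ± 42.9 TPM (SD, n = 7), above 92.8% of tested protein-coding genes. Shmt2 followed at 138 ± 46.8 TPM (SD, n = 7) and Psat1 at 121 ± 20.4 TPM (SD, n = 7). These neighbours did not differ beyond their spread: Atf4 exceeded Shmt2 in 4 of 7 libraries and Shmt2 exceeded Psat1 in 3 of 7. Psat1 exceeded Phgdh, at 92.5 ± 13.1 TPM (SD, n = 7), in 7 of 7. A step then led to Mthfd2 at 24.9 ± 5.34 TPM (SD, n = 7) and Asns at 19.3 ± 9.31 TPM (SD, n = 7), with Phgdh above Mthfd2 in 7 of 7 libraries. Ddit3 stood at 10.2 TPM, between 2.55 and 32.3 TPM in the single libraries, and Sesn2 at 4.65 ± 2.06 TPM (SD, n = 7). Chac1 and Trib3 came last and did not differ beyond their spread, at 1.77 ± 1.67 and 1.75 ± 2.20 TPM (SD, n = 7), above 3.07% and 3.01% of tested protein-coding genes. Atf4, Shmt2, Psat1 and Phgdh thus each stood above at least 87.9% of tested protein-coding genes, whereas Ddit3 stood above 29.1%.

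Among the other genes of the pathway, few passed the test. Of 17 genes for eIF2, its kinases, its exchange factor and its phosphatases, 1 rose and none fell. In either direction that share is near the 5.96% called among all tested genes, where 1.90% were called higher and 4.05% lower. The 1 gene, Eif2ak1, encodes the haem-regulated kinase HRI. It rose from 39.6 ± 2.79 CPM (SD, n = 4) in Control to 66.2 ± 4.77 CPM (SD, n = 3) in MIZ1KO, by 0.74 ± 0.20 on the log2 scale (adjusted p = 0.0361, edgeR). With a library left out, Eif2ak1 missed the threshold in 4 cases, by edgeR: MIZ1KO replicate 1 (adjusted p = 0.141) or 3 (0.0919), and Control replicate 2 (0.105) or 4 (0.0734). It held in 8 of 17 alternatives, with adjusted p-values from 0.00759 to 0.216. Eif2b4, a subunit of the exchange factor, measured 0.96 ± 0.42 (adjusted p = 0.166, edgeR). The median log2 fold change of the 17 was 0.12.

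Of the bZIP partners of ATF4 and CHOP, none of 12 tested passed, with a median of 0.09, and the AP-1 gene Junb measured 1.06 ± 0.37 (adjusted p = 0.0912, edgeR). Nfe2l2, which encodes the oxidative stress factor NRF2, measured 0.39 ± 0.23 (adjusted p = 0.304, edgeR). Atf5, the nearest relative of Atf4 in this list, measured 3.13 ± 1.07 CPM (SD, n = 3) in MIZ1KO and 2.93 ± 0.965 CPM (SD, n = 4) in Control. None of 24 tested genes among other reported ATF4 targets passed, and 12 estimates lay above 0 and 12 below, with a median of 0.01. Slc7a5, which encodes the amino acid transporter LAT1, was nearest to the threshold in that list at 0.80 ± 0.25 (adjusted p = 0.0601, edgeR). It passed in 4 of 17 alternatives, among them without MIZ1KO replicate 2 (adjusted p = 0.0311) and without Control replicate 1 (0.0352), both by edgeR. Pck2, the mitochondrial phosphoenolpyruvate carboxykinase, measured 1.11 ± 0.39 (adjusted p = 0.0921, edgeR) and passed in 2 of 17 alternatives, 1 of them with the TEC share as a covariate (2.56, adjusted p = 0.0486, edgeR).

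The 21 tested genes of serine, glycine and one-carbon metabolism outside the members had a median log2 fold change of 0.03 and none passed. Gart, an enzyme of purine synthesis, measured 0.70 ± 0.25 (adjusted p = 0.0933, edgeR) and passed without Control replicate 1 (adjusted p = 0.0297, edgeR). Mtr, the methionine synthase, measured 0.85 ± 0.35 (adjusted p = 0.140, edgeR). The 12 aminoacyl-tRNA synthetases under ATF4 all had estimates above 0, against 47.7% of all tested genes. Their median was 0.40, with a range from 0.17 to 0.70, and none passed. Sars, the seryl-tRNA synthetase, was the highest at 0.70 ± 0.24 (adjusted p = 0.0866, edgeR).

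**Figure D4:**
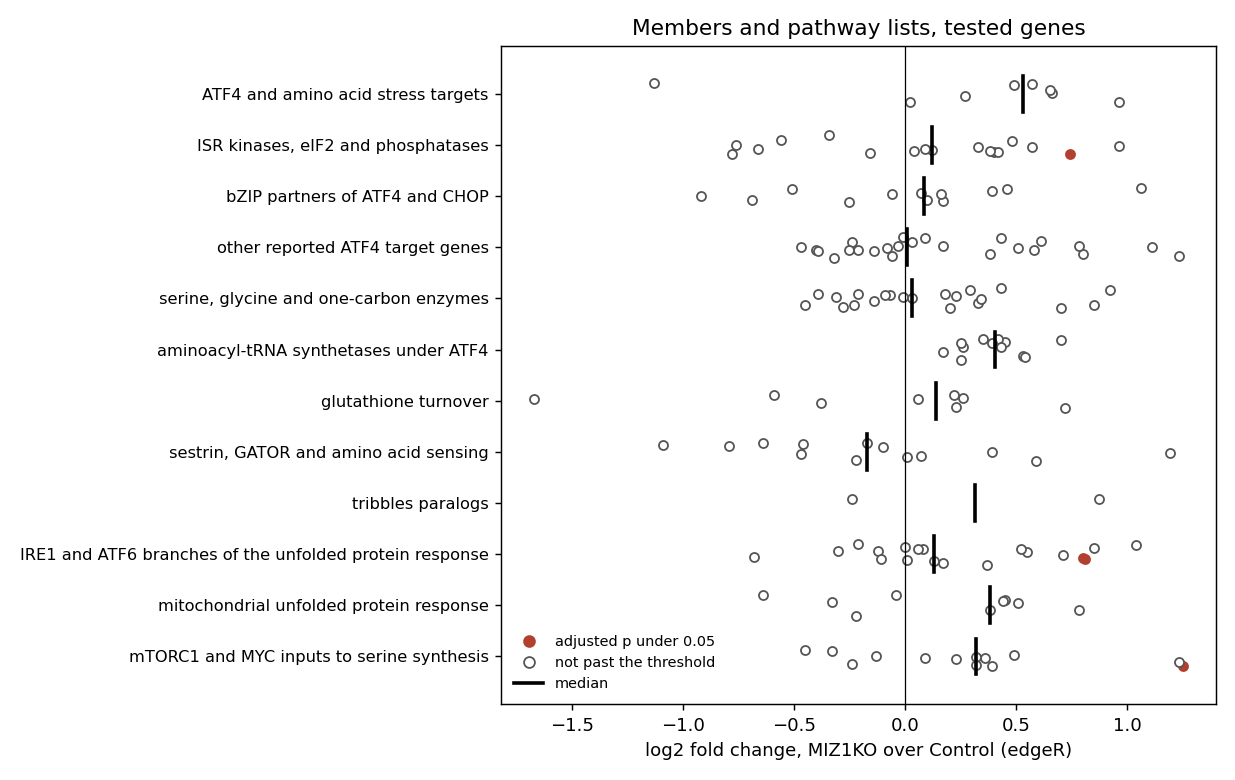
Log2 fold change of MIZ1KO over Control (x axis) for each tested gene of the members and of 11 pathway lists (y axis), filled where the adjusted p of edgeR was under 0.05, with the median of each list as a bar; a gene in more than 1 list is drawn in each. Filled points are Eif2ak1, Calr, Hyou1 and Ehmt2, and the members lie between -1.13 and 0.96.

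In the list of the IRE1 and ATF6 branches of the unfolded protein response, 2 of 19 genes rose and none fell, with a median of 0.13. Among all tested genes 5.96% were called, 1.90% higher and 4.05% lower. Calr, the calcium-binding lectin chaperone calreticulin, rose by 0.81 ± 0.22 (adjusted p = 0.0365, edgeR) and Hyou1, a chaperone of the HSP70 family in the endoplasmic reticulum, by 0.80 ± 0.22 (adjusted p = 0.0421, edgeR). Calr and Hyou1 both missed the threshold when MIZ1KO replicate 1 was left out (edgeR adjusted p = 0.125 and 0.153), and likewise for MIZ1KO replicate 3 (0.137 and 0.131), Control replicate 2 (0.114 and 0.116) and Control replicate 4 (0.0918 and 0.108). Hyou1 also missed it when Control replicate 3 was left out (0.0513). Over the 17 alternatives the adjusted p ran from 0.00576 to 0.379 for Calr and from 0.0129 to 0.341 for Hyou1. None of 9 genes of the mitochondrial unfolded protein response passed (median 0.38), where the mitochondrial chaperones Hspa9 and Hspd1 stood at 0.51 ± 0.20 and 0.45 ± 0.21 (edgeR adjusted p = 0.130 and 0.199).

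Among 13 tested genes that feed into serine synthesis through mTORC1, MYC or chromatin, Ehmt2, which encodes the histone methyltransferase G9a, rose from 19.4 ± 2.92 CPM (SD, n = 4) in Control to 46.4 ± 12.8 CPM (SD, n = 3) in MIZ1KO, by 1.25 ± 0.25 on the log2 scale (adjusted p = 0.0140, edgeR). The call held in 15 of 17 alternatives and ended without MIZ1KO replicate 1 (adjusted p = 0.0710, edgeR) and with the TEC share as a covariate (0.0866, edgeR). The other 12 did not pass, where 5.96% of all tested genes were called, 1.90% higher and 4.05% lower. Ddit4, an inhibitor of mTORC1 that also belongs to the ATF4 targets, measured 1.23 ± 0.44 (adjusted p = 0.0971, edgeR). Of 13 tested genes of amino acid sensing besides Sesn2, none passed, and the list's median was -0.17. In that list Sar1b, a GTPase of vesicle transport, measured -1.09 ± 0.34 (adjusted p = 0.0643, edgeR), and it passed in 4 of 17 alternatives, among them without Control replicate 3 (-1.29, adjusted p = 0.0137, edgeR) and with the TEC share as a covariate (-2.74, adjusted p = 0.00123, edgeR). Wdr24, a subunit of GATOR, measured 1.19 ± 0.46 (adjusted p = 0.122, edgeR). None of the 8 tested genes of glutathione turnover passed (median 0.14), and Chac2, the paralog of Chac1, measured 0.460 ± 0.351 CPM (SD, n = 3) in MIZ1KO and 1.62 ± 0.748 CPM (SD, n = 4) in Control. Ggct, the gamma-glutamylcyclotransferase, measured -0.38 ± 0.29 (adjusted p = 0.450, edgeR). The paralogs of Trib3 did not pass either: Trib1 measured 0.87 ± 0.52 (adjusted p = 0.319, edgeR) and Trib2 -0.24 ± 0.27 (adjusted p = 0.627, edgeR).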

How the data were processed

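RNA of 7 samples was analysed, grouped by the genotype label. The authors deposited 1 table of expected counts, estimated reads per gene without normalization, and 1 table of log2 values; STAR 2.5.2, RSEM 1.3.0, DESeq2 1.18.1, R 3.4.3 and GRCm38 come from the submitters' processing notes, which state no role for them. For the annotation, the strand setting and the function behind the log2 values, the methods were not given in the sources used here. Counts were rounded (6.61% of values were not whole), filtered with filterByExpr, scaled by TMM and tested two-sided with the quasi-likelihood test of edgeR 4.0.16 (newer fit, robust) in R 4.3.3, over 11618 genes with Benjamini-Hochberg adjustment. The fit was tested on simulated counts with known changes and the same spread for every gene. How small a difference it finds at the real spread of these libraries was not measured. Alternatives used DESeq2 1.42.0, limma 3.58.1, the deposited log2 values, other scalings and filters, the TEC share as a covariate, the replicate number as a block, and each library left out. Symbols, coordinates and exonic lengths came from GENCODE vM21 (GRCm38). CPM uses TMM-scaled library sizes; a prior count of 2 entered log2 CPM. Genes were taken from 11 pathway lists: of each, those called and the 2 with the smallest p were named, with paralogs of members as levels; Psph was named after its values were seen. In the lists, 1 name (Samtor) matched no identifier. The members and lists were chosen with earlier results of these data known. Within groups, Spearman correlations between libraries were 0.906 to 0.949, so none was counted as a duplicate.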

Additional observations from a re-analysis of the deposited data

Results flagged for a closer look

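In the 4 Control libraries, 3 of 37 genes checked had 1 library whose distance to its nearest neighbour took up more than 0.829 of the group's range, a limit that chance passes in about 1 in 20 groups. Asns measured 13.2 CPM in Control replicate 1 and 5.51 to 5.91 CPM in the other 3. Ddit3 measured 7.74 CPM in Control replicate 3 and 2.02 to 2.61 CPM in the others. Mars, whose model overlaps that of Ddit3, measured 35.7 CPM in Control replicate 1 and 25.0 to 26.5 CPM in the others. The log2 fold change of MIZ1KO over Control without the library in question was 0.96 for Asns, -0.44 for Ddit3 and 0.66 for Mars, with adjusted p-values of 0.134, 0.741 and 0.0667 (edgeR).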

How the results depend on the processing

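The count of 0 called members became 1 under DESeq2 and without ribosomal RNA genes (Atf4 in both), and ran from 0 to 1 when single libraries were left out (Shmt2 where it was 1). Over all genes, the 692 calls became 1120 with DESeq2, 342 with limma-voom, 315 among protein-coding genes only and 297 with the TEC share as a covariate, and ran from 39, without MIZ1KO replicate 1, to 1350, without Control replicate 1. With the TEC share the sign turned for Psat1 (-0.94), Phgdh (-0.37), Ddit3 (1.14), Hspd1 (-0.08) and Ddit4 (-0.44), and without Control replicate 3 for Psat1, which ran from -0.14 to 0.29 with single libraries left out; the cause was not tested. The split of all calls was 221 higher and 471 lower, and 297 and 423 without ribosomal RNA genes. Replicate numbers are shared by MIZ1KO and Control, but deviations of same-numbered samples correlated at 0.02, 0.07 and 0.16, and 4 of 6 samples correlated best with their own number. The replicate block called 476 genes and 0 members, with 0.72 for Atf4 (adjusted p = 0.0914, edgeR), and ended the calls of Eif2ak1 (0.0604), Calr (0.0642) and Hyou1 (0.0833), while it called Pck2 (1.45, 0.0418) and Sar1b (-1.10, 0.0193). Depth limits Trib3, Chac1, Ddit3 and Sesn2 most.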
